A study of Saccharomyces cerevisiae with 7 samples.

Results

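The transcriptome described here is that of wild-type budding yeast, *Saccharomyces cerevisiae*, as read by 1 RNA-seq library of strain BY4741. It was chosen by its label alone, and is 1 of 7 libraries in the series. Levels were deposited for 5110 genes, and all 5110 are members. The study asked how the paralogous histone chaperones Fpr3 and Fpr4 act on transcription, and wild type served as its reference. The other libraries come from yeast lacking *SIR2*, *FPR3*, *FPR4*, both *FPR3* and *FPR4*, *FPR3* and *TRF5*, or all of *FPR3*, *FPR4* and *TRF5*, with 1 library each. The strains lacking *TRF5* were progeny of the study's genetic array cross, while the other deletion strains were isogenic to BY4741. BY4741 is a haploid of mating type **a** that carries mutations in *HIS3*, *LEU2*, *MET17* and *URA3*, and so cannot make histidine, leucine, methionine or uracil. The culture came from a single colony isolate grown to midlog phase in YPD, a rich medium with glucose, and rRNA was depleted before sequencing. Since wild type was sequenced in 1 library, no value has a replicate check. All intervals are 95% intervals that cover counting error only. They treat counted reads as independent. Mates of a pair, if both were counted, are not, so the intervals may be too narrow. The other genotypes are not replicates of wild type, and their values are given beside it as a description.

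Budding yeast that grow on glucose ferment it to ethanol even where oxygen is present, and glucose represses the genes for using other carbon sources and many genes of respiration. A fast-growing cell also spends a large part of its transcription on ribosomes, whose protein genes lie scattered over the chromosomes and mostly exist as duplicated copies named A and B. Haploid cells express the genes of their own mating type and keep those of the other type, and of meiosis, off.

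The wild-type library holds 1093043 reads counted within genes, against 627679 to 1242534 over the 7 libraries. The median gene had 55 reads. Of the 5110 genes, 4701 (92.0%) had more than 3 reads, 186 had 1 to 3, and 223 (4.36%) had 0. A count of 0 allows up to 3 reads, which is 0.000274% of the reads or an RPKM of 2.74 in a gene of 1 kb. RPKM, the unit of level throughout, is reads per kilobase of gene, scaled to the counted reads of the library. Across genes, the levels of the other libraries had Spearman correlations of 0.89 to 0.95 with those of wild type. *FPR3* and *FPR4* themselves were at 164 and 185 RPKM, ranks 773 and 692 of the 5110 genes. *SIR2*, the histone deacetylase of silent chromatin, was at 35.8 RPKM with 66 reads, and *TRF5*, a poly(A) polymerase of nuclear RNA surveillance, at 16.6 RPKM with 35. *GPD1* and *RPL3*, which the study used to normalize qPCR, were at 249 and 3872 RPKM.

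The markers of cell identity were read first. All 7 **a**-specific genes had more than 3 reads. The **a**-factor genes *MFA2* and *MFA1* stood at 1595 and 701 RPKM (204 and 85 reads), and *STE2*, the receptor for α-factor, at 561 RPKM (794 reads). *AGA2*, an agglutinin subunit, was at 173, *STE6*, the **a**-factor exporter, at 104, *BAR1*, the protease that degrades α-factor, at 102, and *ASG7* at 8.71 RPKM with 6 reads. Of 8 α-specific entries, 6 had 3 reads or fewer. These were *MATALPHA1*, *HMLALPHA1* and *HMLALPHA2* at 0 reads, *MF(ALPHA)1*, an α-factor gene, and *STE3*, the **a**-factor receptor, at 2 each, and *MF(ALPHA)2* at 1. *SAG1*, the α-agglutinin, had 30 reads and *MATALPHA2* had 4. Of these 8 entries, 4 are unique in the genome over less than 80% of their positions, so that their reads could not all be placed. The **a**-specific genes together took 0.400% of summed RPKM, against 0.000748% in the *sir2* library and 0.295% to 0.697% in the other 5.

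All 12 haploid-specific genes were read. *AMN1*, a gene of mitotic exit, was highest at 205 RPKM, followed by *STE4*, the Gβ subunit of the pheromone pathway, at 119 and *FAR1*, its cell cycle inhibitor, at 86.6. *FUS3* (62.9), *RME1* (56.7), *STE12* (54.0), *STE18* (52.2), *STE5* (47.8), *GPA1* (38.0), *AXL1* (36.3), *HO* (33.3) and *NEJ1* (16.9) made up the rest. Of the auxotrophic markers, *LEU2*, *MET17* and *URA3* had 0 reads. *HIS3*, whose allele in BY4741 is an internal deletion that leaves part of the gene, had 44 reads and 60.7 RPKM. In contrast, all 11 nutrient genes that BY4741 keeps were read, from 27.1 RPKM for *TRP1* to 640.02 for *LEU1*, with *URA1* at 504 and *URA2* at 465.

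A small number of genes held most of the signal. The median gene had 37.3 RPKM, with quartiles of 16.4 and 89.0, and the SD of log2(RPKM + 1) was 2.25. There were 246 genes under 1 RPKM, 550 from 1 to 10, 3159 from 10 to 100, 1003 from 100 to 1000, and 152 at 1000 or above. Those 152 genes held 39.6% of all reads. It took 32 genes to reach 25% of summed RPKM, 158 to reach 50% and 627 to reach 75%. By reads, 188 genes reached 50%.

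**Figure D1:**
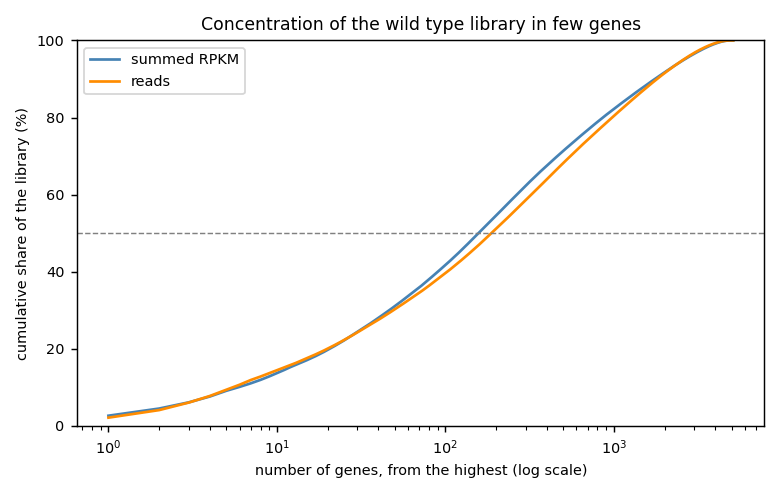
Cumulative share (%) of the wild-type library, on the y axis, against the number of genes counted from the highest, on a log x axis, by summed RPKM and by reads. The dashed line marks 50%, which 158 genes reach by RPKM and 188 by reads.

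The 25 highest nuclear genes included genes of glycolysis and fermentation, translation, the cell wall, the plasma membrane and protein folding, and held 22.2% of summed RPKM. *TDH3* (YGR192C, chromosome VII, 882812 to 883810), which encodes the main glyceraldehyde-3-phosphate dehydrogenase, led with 23503 reads and 21524 RPKM (interval 21250 to 21801), 577 times the median gene. *CCW12* (YLR110C, chromosome XII, 369697 to 370098), a mannoprotein of the cell wall, followed at 15079.5 RPKM, and *CDC19* (YAL038W, chromosome I, 71786 to 73288), pyruvate kinase, at 13049.9. *ENO2*, enolase, was at 12289.6, and *FBA1*, aldolase, at 11982. A gap separated these 5 genes from the next, *GPM1*, at 8279.

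The list continued with *GPM1* (phosphoglycerate mutase), *ADH1* (the alcohol dehydrogenase that makes ethanol) at 7514, *PDC1* (pyruvate decarboxylase) at 7284, and *PGK1* (phosphoglycerate kinase) at 7225. *CWP2*, another wall mannoprotein, was at 7030.45 RPKM. *YEF3*, the elongation factor particular to fungi, was at 6238, and *PMA1*, the proton pump of the plasma membrane, at 6188. *RPS26A* was the highest ribosomal protein gene, at 5187. *RPS31*, *RPS15*, *RPL5*, *RPS2*, *RPP0*, *RPL10*, *RPL3* and *RPS20* lay between 4726 and 3787, among them *SSA2*, a cytosolic Hsp70 chaperone, at 4476, and the glycolytic *TPI1* and *TDH2* at 4399 and 4383. Of these 25, 21 were within the 50 highest of all other libraries and 23 within the 100 highest. The exceptions to the latter were *SSA2*, which stood at rank 111 in 1 library, and *TDH2*, at rank 160.

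Since ambiguous reads were removed, genes with a near-identical copy were undercounted, and the share of a gene that is unique in the genome bears on its rank. When reads were set against unique positions only, *TEF2* and *TEF1*, which encode the same elongation factor 1α, went from 1896 and 1315 RPKM to 9671 and 6706, since 19.6% of each gene is unique. *EFT2*, elongation factor 2, went from 1418 to 7229, and *RPL4A* from 2181 to 4196. These 4 took the places of *RPL10*, *RPL3*, *RPP0* and *RPS20* among the 25 highest. Reads were paired, and a read in a repeated stretch may have been placed by its mate. Levels per unique position may then be too high, which was not tested. *TDH3* and *SSA2* are unique over 92.6% and 56.4% of their positions.

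Of the 100 highest nuclear and mitochondrial genes, 49 encode ribosomal proteins and 85 fall in one of the functional lists. Among those outside the lists were *TMA19*, a ribosome-associated protein (3689 RPKM), *TSA1* and *AHP1*, peroxiredoxins (3472 and 1794), *ACT1*, actin (2981), *GPP1*, a glycerol phosphatase (2330.32), *IPP1*, inorganic pyrophosphatase (2016), and *CTS1*, the chitinase of cell separation (1595). Their names were picked from the ranking itself.

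**Figure D2:**
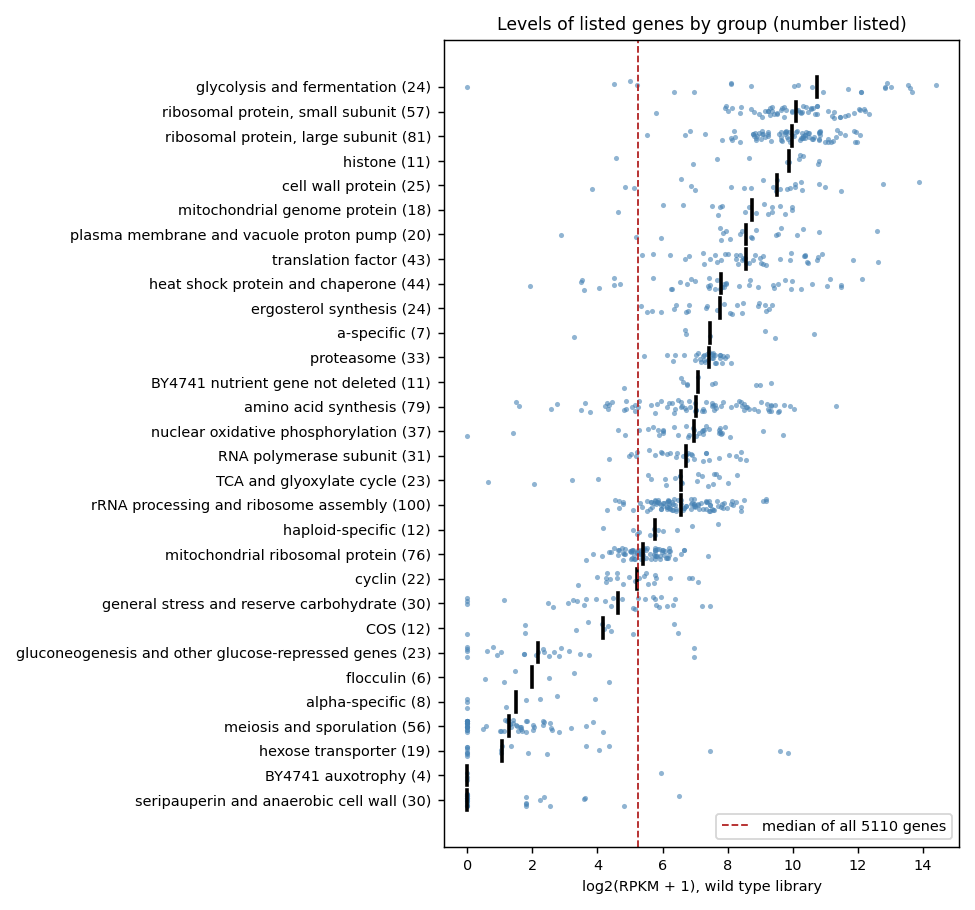
log2(RPKM + 1) of every listed gene (points) in the wild-type library by gene group, with the group median as a black bar and the median of all 5110 genes as a dashed line. Glycolytic, ribosomal protein and histone genes sit highest, and hexose transporters spread from 0 reads to 920.5 RPKM.

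Glycolysis and fermentation took 13.3% of summed RPKM with 24 genes (13.2% of reads, exact binomial interval 13.2% to 13.3%). Their median was 1733 RPKM, beside 37.3 over all genes, and 20 of the 24 lay above that general median. Most steps with several isozymes had 1 dominant gene. Of the glyceraldehyde-3-phosphate dehydrogenases, *TDH3* stood at 21524, *TDH2* at 4383 and *TDH1* at 271 RPKM. Enolase had 12289.6 from *ENO2* and 1143 from *ENO1*. Of the pyruvate kinases, *CDC19* was at 13049.9 and *PYK2* at 31.3. Of the pyruvate decarboxylases, *PDC1* was at 7284, *PDC5* at 21.6, and *PDC6* had 0 reads. Hexokinase was mainly *HXK2* (1936), with *GLK1* at 275 and *HXK1* at 124. The alcohol dehydrogenase *ADH2*, which consumes ethanol and is repressed by glucose, had 7 reads and 6.12 RPKM, against 7514 for *ADH1*. The subunits of phosphofructokinase, *PFK1* and *PFK2*, stood at 1055 and 1529. The share of this group was 8.23% to 14.3% in the other libraries, lowest in that lacking *FPR3*, *FPR4* and *TRF5*.

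**Figure D3:**
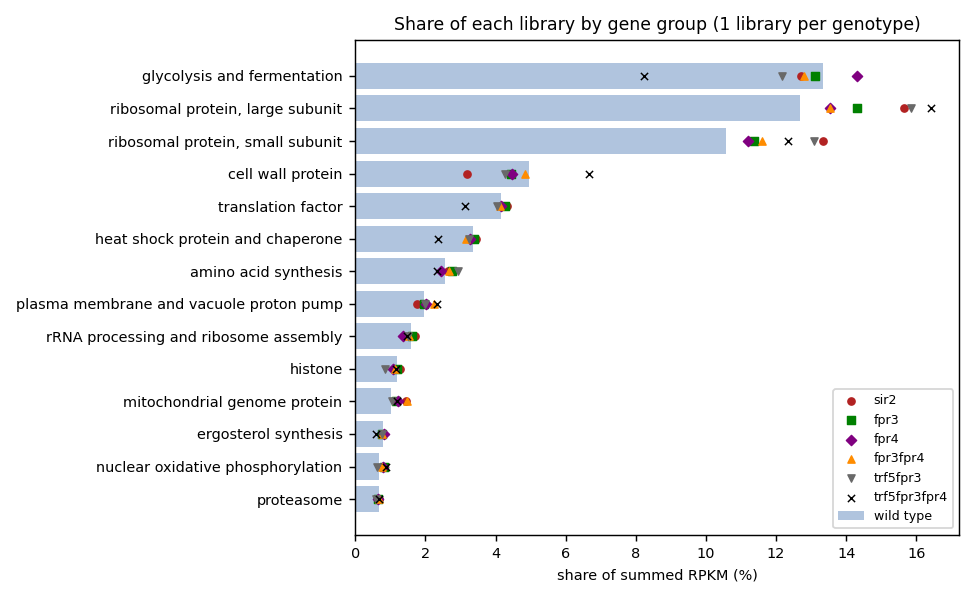
Share of summed RPKM (%) taken by the 14 largest gene groups, as bars for wild type and as symbols for each of the other 6 libraries. In wild type, glycolysis and fermentation took 13.3%, large-subunit ribosomal proteins 12.7% and small-subunit ones 10.6%.

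Among the 19 genes of hexose transport and sensing, 3 carried nearly all reads. *HXT2* was highest at 920.5 RPKM (1636 reads), then *HXT3* at 781 (1455 reads) and *HXT1* at 173 (324 reads). *HXT1* and *HXT3* are low-affinity transporters, whereas *HXT2* has a higher affinity. *HXT4* followed at 19.6 RPKM, and 11 of the 19 had 3 reads or fewer, 7 of them 0. *GAL2*, the galactose permease, was among those at 0. The glucose sensors *RGT2* and *SNF3* were at 11.6 and 4.48 RPKM. *HXT7* and *HXT6* showed 29 and 5 reads, but only 7.71% of each gene is unique. Per unique position, *HXT7* came to 201 and *HXT6* to 34.7, so that the level of these high-affinity transporters is uncertain.

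Genes for other carbon sources were low. The 23 genes of gluconeogenesis and other glucose-repressed functions had a median of 3.50 RPKM, and 8 had 3 reads or fewer. Its highest members were *SUC2*, invertase, at 125 RPKM (218 reads) and *ATO3*, an ammonium transporter, at 124. The next was *MAL11*, a maltose permease, at 12.4. The gluconeogenic *FBP1* and *PCK1* had 4 and 6 reads, the galactose genes *GAL1*, *GAL7* and *GAL10* had 7, 5 and 2, and *POX1*, acyl-CoA oxidase, had 0. In the tricarboxylic acid and glyoxylate cycles (23 genes, median 93.3 RPKM), *ACO1*, aconitase, was highest at 310.05, with *IDH2* at 257 and *MDH2* at 211. The glyoxylate enzymes *ICL1* and *MLS1* had 28 reads and 1 read.

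The nuclear genes of oxidative phosphorylation (37 genes) had a median of 123 RPKM and took 0.691% of summed RPKM. They were led by the ATP synthase genes *ATP2*, *ATP1* and *ATP3* (821, 542 and 269), and *CYC7*, the minor cytochrome c, had 0 reads. The 76 genes for the mitochondrial ribosome had a median of 41.5 RPKM, close to that of all genes, and ranged from 11.6 (*RSM22*) to 166 (*MRPS12*), followed by *RTC6* at 101 and *RSM19* at 99.4. By contrast, the 138 genes for the cytosolic ribosome had medians of 1009 (large subunit) and 1098 (small subunit).

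All 18 genes of the mitochondrial genome were read, with a median of 434 RPKM and 3.26% of all reads. *AI1*, a maturase encoded in an intron of *COX1*, stood at 1004 RPKM, *OLI1*, a subunit of ATP synthase, at 994, and *ATP6* at 869. *VAR1*, a mitochondrial ribosomal protein, was lowest at 23.7. *COX1* and *COB* span introns that encode other listed genes on the same strand, so reads in those stretches could be counted for more than 1 gene, and the levels of the overlapping genes are uncertain.

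Cell wall proteins took 4.96% of summed RPKM. Of the 25 genes, 22 were above the general median. After *CCW12* and *CWP2* came *GAS1*, a glucan-remodelling enzyme, at 2875, and *SED1*, at 2042. *FKS1*, the main glucan synthase subunit, was at 737 RPKM, and its paralog *GSC2* at 27.5. *PIR3* was lowest, at 13.1. Pumps that move protons across the plasma membrane and vacuole, with their regulators, took 1.96% (20 genes, median 382). Here *PMA1* (6188) stood far above its paralog *PMA2* (6.43), and the small *PMP1* and *PMP3* followed at 1785 and 1263. The 24 genes of ergosterol synthesis were all above the general median, from *ERG8* (39.8) to *ERG11* (661), with *ERG3* at 611 and *ERG25* at 573.

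Translation factors (43 genes, median 373) all lay above the general median and took 4.16%. *YEF3* was followed by *HYP2*, the eIF5A gene, at 3717 and *TEF2* at 1896. *ANB1*, the hypoxic paralog of *HYP2*, was lowest at 40.5. Chaperones (44 genes, median 223) took 3.35%. The highest were *SSA2* (4476), the ribosome-bound Hsp70 *SSB1* (2882) and *CPR1*, a cyclophilin (2881). The constitutive Hsp90 gene *HSC82* was at 2247. Stress-inducible members were low, with *HSP26* lowest at 2 reads, *HSP12* at 4 reads, and *SSA3* and *SSA4* at 22 each.

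The 100 genes of rRNA processing and ribosome assembly took 1.60% with a median of 93.3 RPKM, and 93 of them were above the general median. None was among the 100 highest genes. They were led by *NOP56*, a box C/D snoRNP protein (572), *TIF6* (571) and *NSR1*, yeast nucleolin (544), and ended with the helicase *DBP7* (18.5). RNA polymerase subunits (31 genes, median 105) were led by *RPC40* (378), shared by polymerases I and III, and the large polymerase I subunits *RPA135* (335) and *RPA190* (329), and *RPC37* was lowest at 19.4.

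Proteasome genes lay within a narrow range. All 33 were above the general median, within 42.4 (*RPN4*, the transcriptional activator of the others) to 271 (*PRE4*), with *PRE1* at 251 and *RPN3* at 239. Amino acid synthesis (79 genes, median 129) was led by *ILV5* (2577) and *ILV3* (1051) of the branched-chain pathway and *SAM1* (955), which makes S-adenosylmethionine. Its lowest member was *ARG3* at 1.80 RPKM with 2 reads. Histone genes (11, median 935) ranged from *CSE4*, the centromeric H3 variant (22.5), to *HHT2* (1779), *HTB2* (1747) and *HHF2* (1267). Cyclins (22 genes) had a median of 36.1, with the G1 cyclin *CLN3* at 136, *PCL5* at 119 and *CLN2* at 112, and the S-phase cyclin *CLB6* lowest at 9.61.

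Genes of sporulation and anaerobic growth were near the floor, while those of stress varied. General stress and reserve carbohydrate genes (30) had a median of 23.8, with 11 above the general median and 6 at 3 reads or fewer, and were led by the trehalose synthesis genes *TPS1* (174) and *TPS2* (148) and by *ALD4* (81.5). The stationary phase marker *SPG5* had 97 reads, *SPG4* had 2, and *SPG1* and *GRE1* had 0. Of 56 meiosis and sporulation genes, 37 had 3 reads or fewer, 20 of them 0, and none was above the general median. The highest was *IME1*, the inducer of meiosis, at 16.9 RPKM, followed by *GMC1* (13.5) and *REC107* (11.6). *DMC1*, the meiotic recombinase, had 0 reads. Of 30 seripauperin and anaerobic cell wall genes, 19 had 0 reads, and *TIR1* was the 1 member above the general median, at 89.7, ahead of *TIR3* (27.1) and *TIR4* (11.3). The 6 genes of the flocculin list ranged from *FLO9* (0.46) to *FLO8* (19.4), which is a regulator and not itself a flocculin. *FLO5* was at 8.79 and *FLO10* at 4.69. Of the 12 subtelomeric *COS* genes, *COS6*, *COS8* and *COS9* were highest (88.6, 81.4 and 32.9), and *COS4* had 0 reads.

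The 138 ribosomal protein genes held 23.2% of summed RPKM, above glycolysis and fermentation. By reads, which favour longer genes, they held 13.0%, just under the 13.2% of glycolysis and fermentation. All 138 were above the general median. The shares in wild type, 12.7% for the large subunit and 10.6% for the small, were below those of all other libraries (13.5% to 16.4% and 11.2% to 13.3%). The 20 single-copy genes had a median of 2955 RPKM, while the 118 genes with an A or B partner had a median of 924. Of the single copies, *RPS31*, made as a fusion with ubiquitin, was highest at 4726 and *RPL39* lowest at 155 with 92 reads. *BUD19*, on the strand opposite *RPL39*, had 825 reads, and strand assignment there was not tested, so the level of *RPL39* is uncertain. When the copies of each pair were added, the 59 pair sums had a median of 1877 RPKM. The sums spread less than their single copies, with an SD of log2 RPKM of 0.83 against 1.17. Adding copies tends to lower such a spread by itself, and sums of copies from different pairs were not computed. These values therefore do not show whether partner copies balance each other. RPKM counts introns as gene length, and most duplicated ribosomal protein genes have one. By coding length, the median pair sum was 3303 and the median single-copy gene 3338, and the SD of the pair sums was 0.60.

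Within the 61 pairs named A and B, of which 59 encode ribosomal proteins, the copies were often unequal. The higher copy exceeded the lower at least 2-fold in 24 pairs (16 with A higher and 8 with B) and at least 4-fold in 10, and the median fold was 1.77. The counting interval included equality in 10 pairs. By coding length 25 pairs were past 2-fold, and the higher copy changed in 4. In 49 of the 61 pairs the same copy was higher in all 7 libraries. This held for 23 of the 24 pairs past 2-fold, with *RPL41* as the exception, and for 26 of the 37 others.

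**Figure D4:**
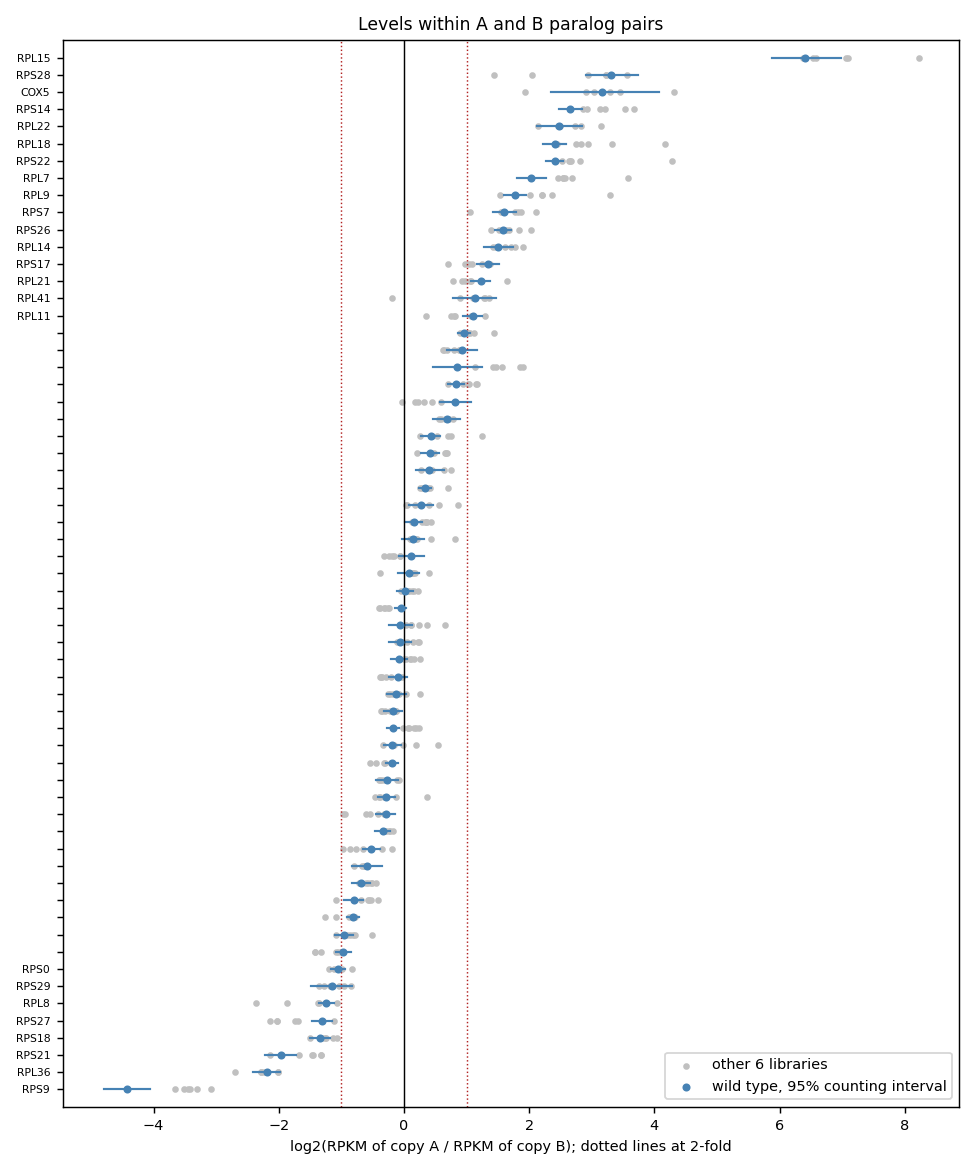
log2 ratio of the RPKM of copy A to that of copy B for 61 paralog pairs, sorted and named where past 2-fold, with wild type in blue and its 95% counting interval as a line, and the other 6 libraries in grey. RPL15 lies farthest to the right at 6.40 and RPS9 farthest to the left at -4.42.

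The most unequal pair was *RPL15*. *RPL15A* (YLR029C, chromosome XII, 201976 to 202590) had 2539 reads and 3777 RPKM, whereas *RPL15B* (YMR121C, chromosome XIII, 509734 to 510348) had 30 reads and 44.6 RPKM, an 84.6-fold difference (interval 59.1 to 126). Both are 615 bases long, their coding sequences are 93.2% identical and 97.2% of the positions of each are unique. In the other libraries *RPL15A* was at 3713 to 5412 RPKM and *RPL15B* at 18.1 to 48.4, with no overlap.

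*RPS9* was the next, with B the higher copy. *RPS9B* (YBR189W, chromosome II, 604508 to 605508) had 1290 reads and 1179 RPKM, and *RPS9A* (YPL081W, chromosome XVI, 404950 to 406044) had 66 reads and 55.1 RPKM, a 21.4-fold difference (16.7 to 27.8). *RPS9A* was at 108 to 215 RPKM in the other libraries, above its wild-type level in each, and remained below *RPS9B* (1233 to 1830).

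*RPS28A* exceeded *RPS28B* by 9.89-fold (544 against 55 reads, interval 7.49 to 13.3). *COX5A*, the aerobic form of a cytochrome c oxidase subunit, exceeded *COX5B*, its hypoxic form, by 8.92-fold (106 against 14 reads, 5.09 to 16.9). The folds were 6.32 for *RPS14* (1701 and 308 reads), 5.58 for *RPL22* (470 and 77), 5.31 for *RPL18* (1589 and 295) and 5.30 for *RPS22* (1425 and 599), with A the higher copy in all 4. *BUD28*, on the strand opposite *RPL22A*, had 530 reads, and strand assignment there was not tested. For *RPS22*, where only B has an intron, the fold was 2.38 by coding length. At the other end, *RPL40* (1.01-fold, interval 0.93 to 1.10), *RPS1* (1.04), *RPL27* (1.04) and *RPS25* (1.04) had intervals that included equality.

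The 21 pairs whose copies encode identical proteins had a median fold of 1.22 with 3 past 2-fold, while the remaining pairs had a median of 2.10. *RPL18* was the most unequal of these, at 5.31-fold.

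Upstream of their start codons the copies of a pair shared little sequence. The DNA from 450 to 150 bases before each start codon was read from RefSeq's R64 genome, the same build as sacCer3. The A and B windows had a median identity of 46.2% after alignment (42.9% to 51.8%), against 45.5% between windows of different pairs, while the coding sequences had a median of 93.1%. The windows of the 2 most unequal pairs, *RPL15* and *RPS9*, are shown 5′ to 3′ because their copies differ most in level. They are followed by those of *RPL13B* (1550 RPKM) and *RPL20B* (1436), the highest ribosomal protein genes whose windows hold CACCC followed after 2 bases of any kind by ACA, on either strand, a form of the site of Rap1, an activator of ribosomal protein genes. Capitals mark those letters.
RPL15A (chrXII:202741-203040, minus strand): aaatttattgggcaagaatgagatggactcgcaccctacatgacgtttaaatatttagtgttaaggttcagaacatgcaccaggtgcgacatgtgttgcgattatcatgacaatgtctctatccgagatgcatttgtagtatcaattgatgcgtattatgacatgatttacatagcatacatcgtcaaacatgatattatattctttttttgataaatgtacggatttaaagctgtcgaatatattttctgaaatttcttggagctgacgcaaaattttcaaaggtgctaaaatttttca
RPL15B (chrXIII:510499-510798, minus strand): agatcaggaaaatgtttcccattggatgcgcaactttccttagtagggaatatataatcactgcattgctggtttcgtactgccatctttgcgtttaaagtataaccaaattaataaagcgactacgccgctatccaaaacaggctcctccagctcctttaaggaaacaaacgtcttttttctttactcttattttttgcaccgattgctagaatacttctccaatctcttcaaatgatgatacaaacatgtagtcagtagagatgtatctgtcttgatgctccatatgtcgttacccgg
RPS9A (chrXVI:404500-404799, plus strand): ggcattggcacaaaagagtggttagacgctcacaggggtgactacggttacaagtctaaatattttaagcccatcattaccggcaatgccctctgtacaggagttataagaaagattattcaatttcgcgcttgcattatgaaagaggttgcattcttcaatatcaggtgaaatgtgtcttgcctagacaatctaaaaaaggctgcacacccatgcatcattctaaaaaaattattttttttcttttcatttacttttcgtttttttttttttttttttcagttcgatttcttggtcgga
RPS9B (chrII:604058-604357, plus strand): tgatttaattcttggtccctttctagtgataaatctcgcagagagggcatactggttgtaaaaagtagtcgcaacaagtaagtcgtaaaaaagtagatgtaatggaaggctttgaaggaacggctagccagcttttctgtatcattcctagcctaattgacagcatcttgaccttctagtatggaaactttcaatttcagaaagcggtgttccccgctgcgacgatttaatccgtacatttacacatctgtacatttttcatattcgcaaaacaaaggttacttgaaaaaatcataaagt
RPL13B (chrXIII:551358-551657, minus strand): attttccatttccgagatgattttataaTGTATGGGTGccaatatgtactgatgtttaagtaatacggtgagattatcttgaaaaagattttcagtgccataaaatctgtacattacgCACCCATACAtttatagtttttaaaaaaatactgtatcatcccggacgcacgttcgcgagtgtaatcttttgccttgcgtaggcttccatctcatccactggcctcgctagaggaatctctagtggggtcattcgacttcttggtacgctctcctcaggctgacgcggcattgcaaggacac
RPL20B (chrXV:901345-901644, minus strand): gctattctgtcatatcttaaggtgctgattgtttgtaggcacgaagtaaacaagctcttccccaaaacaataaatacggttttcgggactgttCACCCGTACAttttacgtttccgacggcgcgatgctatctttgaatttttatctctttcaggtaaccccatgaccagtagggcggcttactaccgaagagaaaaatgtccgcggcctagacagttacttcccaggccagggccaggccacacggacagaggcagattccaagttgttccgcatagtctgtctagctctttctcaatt
The letters were found in 26 of 138 windows of ribosomal protein genes (18.8%) and in 1.57% of all 5019 windows of this length. In pairs past 2-fold, they were in 4 windows of the 24 higher copies and 5 of the 24 lower copies. None of the *RPL15* and *RPS9* windows holds them, which says only that these letters are not in that stretch. For comparison, GATGAG, a form of the PAC element, was in 28.0% of the windows of rRNA processing genes and 16.8% of all, and CTTCC, a form of the site of the glycolytic activator Gcr1, in 66.7% of those of glycolysis and 47.0% of all.

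Codon use in the highest genes differed from that in all genes. In the 100 highest protein-coding genes, AGA made up 83.7% of arginine codons, against 48.2% over all 5019 genes with a coding sequence and 41.8% in those with 0 reads. The corresponding shares were 93.3%, 46.4% and 42.9% for GGT among glycine codons, 73.8%, 28.6% and 28.8% for TTG among leucine codons, and 87.2%, 41.1% and 43.1% for CCA among proline codons. In the 400 genes ranked next, AGA made up 65.1%. The shares of GGT, TTG and CCA did not fall steadily with level. In the lowest genes with more than 3 reads they were 38.7%, 25.4% and 37.4%, below those of genes with 0 reads. For AGA the share in the lowest genes with more than 3 reads was 44.5%, above that of genes with 0 reads.

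Chromosome medians were close to each other. They ran from 28.0 RPKM on chromosome I (81 genes) to 43.6 on chromosome VIII (237 genes), a ratio of 1.56. Without genes within 20 kb of a chromosome end the ratio was 1.27, with chromosome XIII lowest. Chromosome XII held 12.5% of reads and chromosome VII 12.1%. On chromosome VIII, *ENO2* (12289.6), *RPS20* (3787), *RPS4B* (1718) and *RPS27B* (1622.5) were highest, and *RPL42B*, *EGD2*, *RPL8A*, *SSZ1*, *DSE2* and *ERG11* completed its first 10, down to 661. On chromosome I, *CDC19* (13049.9) stood above *EFB1*, elongation factor 1β (1292), *SSA1* (746) and *CYS3* (639), and *FUN12*, *PMT2*, *ERP1*, *ERV46*, *ADE1* and *ERP2* lay from 328 to 179.

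Position relative to the chromosome end went with level. Of 158 protein-coding genes within 20 kb of an end, 57 (36.1%) had 0 reads, against 2.60% of the 4883 farther in. Many of the genes near ends belong to repeated families, whose reads could have been removed as ambiguous. Among genes with at least 80% unique positions the contrast was smaller. Within 10 kb of an end 6 of 28 (21.4%) had 0 reads, and from 10 to 20 kb 2 of 58 (3.45%). The share was 4.09% from 20 to 40 kb, 2.29% from 40 to 100 kb and 2.30% beyond. Among genes with at least 80% unique positions, the median was 10.4 RPKM within 10 kb of an end (28 genes), 24.5 from 10 to 20 kb (58 genes), 30.9 from 20 to 40 kb, 39.6 from 40 to 100 kb and 38.95 beyond.

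**Figure D5:**
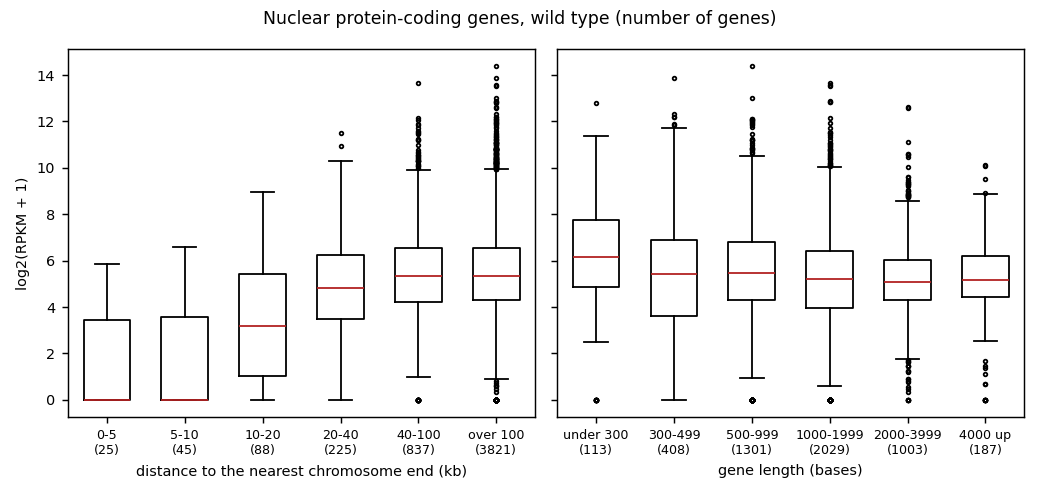
log2(RPKM + 1) of nuclear protein-coding genes in wild type by distance to the nearest chromosome end in kb (left) and by gene length in bases (right), as boxes of the quartiles with the median in red, whiskers to the farthest values within 1.5 box lengths and single points beyond. Medians were at 0 within 10 kb of an end, and were highest for genes under 300 bases, at 70.7 RPKM. Of the genes within 5 kb of an end 68.0% are under 80% unique, and of those from 5 to 10 kb 55.6%.

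Level changed little with gene length. The Spearman correlation across 5092 nuclear genes was -0.05, and -0.17 across the 4683 with more than 3 reads. A minimum of reads removes short genes unless their RPKM is high, which by itself lowers the second value. The first value includes 47 tRNA genes with a median of 73 bases, of which 36 had 0 reads. Across 4916 protein-coding genes at least 80% unique the correlation was -0.085. These correlations are descriptions across genes, which are not independent replicates and share the library. Protein-coding genes under 300 bases had a median of 70.7 RPKM, and those of 2000 to 4000 bases one of 33.1. The longest gene, *MDN1*, an AAA protein of ribosome assembly with 14733 bases, had 1366 reads and 84.8 RPKM. *DYN1*, dynein, had 19.2 RPKM, *TRA1* 70.1, *TOM1* 80.9, *VPS13* 44.3, *IRA1* and *IRA2*, the Ras inhibitors, 60.1 and 81.2, *CSF1* 30.1, *TEL1*, a checkpoint kinase, 15.8, and *NUM1* 46.2. Spliced genes (240) had a median of 116 RPKM against 37.1 for unspliced ones. Without ribosomal protein genes the spliced ones had 31.1, while the 37.1 still includes unspliced ribosomal protein genes. RPKM counts introns as gene length, which lowers the values of spliced genes.

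Some of the 223 unread genes fell into a few classes. Of 47 tRNA genes 36 had 0 reads, and of 4 pseudogenes 3. The tRNA genes had a median length of 73 bases. Whether RNA this short could be captured was not tested, so 0 reads there says little about expression. Among nuclear protein-coding genes, 184 of 5041 (3.65%) had 0 reads. Uniqueness went with this. Of 125 protein-coding genes under 80% unique, 61 (48.8%) had 0 reads, against 123 of 4916 (2.50%) of the others. Of these 123 unread genes, 115 lay at least 20 kb from a chromosome end, so neither low uniqueness nor such a position marks them. All 8 *YRF1* helicase genes of the telomeric Y′ elements, which are the 8 longest unread genes and at most 3.79% unique, had 0 reads, as did *ENA2*, a sodium pump gene (1.40% unique), and all 4 *ASP3* asparaginase copies. In these genes a count of 0 cannot be told apart from reads that were removed as ambiguous.

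The longest unread genes that could have been read have roles in other growth states. The 10 longest with at least 80% unique positions were *SPO75* of sporulation, *POX1* of fatty acid oxidation, *ZIP2*, *REC8* and *PCH2* of meiosis, *DAL4*, the allantoin permease, *GAL2*, *STL1*, the glycerol importer, *HXT17* and *PDC6*. For *SPO75*, with 2607 bases, 0 reads allow up to 1.05 RPKM. In all, 80 genes had 0 reads in all 7 libraries, while 54 of the 223 had more than 3 reads in at least 1 other library. Unread protein-coding genes had a median length of 732 bases, against 1302 for those read.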

How the data were processed

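RNA of 1 wild-type culture was rRNA-depleted and sequenced as paired ends. The authors aligned reads to sacCer3 with BWA, removed ambiguous and improperly paired reads, collapsed duplicated fragments and counted reads of the proper strand within each gene, which lowers the highest genes and those with near-identical copies. The authors deposited a raw read count and an RPKM per gene, in a column named TPM. Recomputed from the count, the span of the gene and the 1093043 counted reads, the largest difference in RPKM was 0.0645% (genes over 20 reads). Of 5110 genes, 5041 matched RefSeq by systematic name, and 5034 had the same span. Other genotypes are shown as values only.

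Levels are the deposited RPKM, with exact Poisson intervals of the reads, and shares and pair ratios carry exact binomial intervals, at 95%. No test was run, since 1 library allows none. A position was called unique where the 100 bases around it occur once in the genome. Log values used a pseudocount of 1. Python libraries (numpy, pandas, scipy, Biopython, matplotlib) were used. Intervals were tested only on simulated Poisson counts, without paired reads or collapsed duplicates, which does not test them on these data. Lists are of names and name patterns, and the members and lists were chosen with earlier results of these data known. *RPP1*, an RNase P subunit, was taken out of the ribosomal list, as were misplaced members of the mitochondrial ribosomal and haploid lists, after values were seen. Named are the 25 highest nuclear genes, the 3 highest and the lowest of each list, all mating-type and strain markers, the 10 longest genes, the 10 highest of the chromosomes with the highest and lowest medians, the 10 longest unread genes, the 8 most and 5 least unequal pairs, and the deleted and qPCR reference genes. Some genes under this rule are not reported here. Further isozymes and list members were named for their role, after values were seen. The alternatives were other minimums of reads, pseudocounts, lengths, fold thresholds and gene filters.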

Additional observations from a re-analysis of the deposited data

How the results depend on the processing

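No paired analysis was possible because each genotype has 1 library and no replicate number. By reads alone, 15 of the 25 highest genes stayed among the 25 highest. Ribosomal proteins and glycolysis together held 36.6% of summed RPKM, and 26.2% of reads, 37.0% without mitochondrial genes, 36.3% without genes under 80% unique, and 40.9% by coding length. The SD of log2 levels (2.25) was 2.71 with a pseudocount of 0.1, and 1.88 both with a pseudocount of 5 and over genes with more than 3 reads. The ratio of the highest to the lowest chromosome median (1.56) was 1.27 without genes within 20 kb of an end, and 1.33 over genes with more than 3 reads. The Spearman correlation of level with length (-0.05) was -0.17 over genes with more than 3 reads, a filter that removes short genes of low RPKM. It was -0.011 without ribosomal protein genes, and -0.085 over protein-coding genes at least 80% unique. Counting 3 reads or fewer as unread gave 409 genes in place of 223. At 4-fold, 10 pairs were called in place of 24. Of 214 other values for single groups, 96 moved by more than their counting interval. The alternatives by coding length, over protein-coding unread genes and over unique protein-coding genes for length were chosen after seeing the data. Depth limits genes with few reads, since 3 reads cannot be told from 0.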

Other observations

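Several genes that lie mostly opposite a ribosomal protein gene were read far more than other such genes. *BUD19*, of which 88.3% lies opposite *RPL39*, had 825 reads and 2443 RPKM, against 92 reads and 155 RPKM for *RPL39*, the lowest of the single-copy ribosomal protein genes. *BUD19* had 734 to 1969 reads in the other libraries. *OPI11*, opposite *RPL43A*, had 533 reads against 673, and *BUD28*, opposite *RPL22A*, had 530 against 470. In contrast, *OPI6*, opposite the mannosyltransferase gene *PMT1* (695 reads), had 2 reads, and *BUD30*, opposite *RPC53* (86 reads), had 0. Of 27 genes with most of their length opposite another gene, 10 had 0 reads. All 3 ribosomal partners have 2 exons. Strand assignment at these loci was not tested.

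Some genes with 0 reads in wild type were read in another library. *SNO1* of vitamin B6 metabolism had 22 in that lacking *FPR3*, *FPR4* and *TRF5*, and *PHO11*, an acid phosphatase gene of which 26.1% is unique, had 63 in that lacking *FPR3*. *LEU2* had 70 reads in the library lacking *TRF5* and *FPR3*. That strain came from a cross whose query strain, by the paper's methods, carried a *LEU2* deletion module in place of *FPR3*. The origin of these *LEU2* reads was not tested, and they are not read as a difference in expression. Neighbouring genes under 1000 bases apart showed a Spearman correlation of level of 0.15 for 964 divergent pairs, -0.00 for 1894 tandem pairs and 0.01 for 1133 convergent pairs, as a description across genes of 1 library.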
